A study of Homo sapiens with 6 samples.

Results

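Mitochondrial DNA is transcribed and its RNA is cut, protected and removed by proteins that are encoded in the nucleus, and 10 genes for such proteins were followed through MYCN induction in neuroblastoma cells. The 10 genes were taken by name for their function, with earlier results of these data known. They were *TFAM*, *POLRMT*, *TFB2M* and *TEFM* for transcription, and *ELAC2* and *TRMT10C* for RNA cutting. The others were *LRPPRC* and *SLIRP* for RNA stability, and *PNPT1* and *SUPV3L1* for RNA decay. All 10 were found among the 60651 genes of the count files, and all 10 were among the 29086 genes with enough counts to be tested. None of the 10 was higher or lower in MYCN-induced cells after adjustment over all genes tested. *PNPT1*, which lay 1.31-fold higher, came closest to the threshold.

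SK-N-AS, an established line of human neuroblastoma cells, has no *MYCN* amplification. The cells (SK-N-AS TR-MYCN) carried a MYCN gene under the control of a tetracycline repressor, were kept as single clones under selection with G418 and blasticidin, and were used in both groups. The MYCN-induced group (labelled Tet) consisted of 3 libraries from cells given tetracycline for 120 h, and the control group (labelled ETOH) of 3 libraries at the same time point, so that effects of tetracycline itself and of MYCN cannot be told apart. The sources do not say which clone gave each library. RNA depleted of ribosomal RNA was sequenced, and read pairs on the exons of each gene were counted. Pairs that overlapped several genes were shared in fractions and strand was not used, according to the header of the files.

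MYCN itself, the check of the labels, stood at 30.3, 35.5 and 32.4 CPM (counts scaled to library size after TMM normalization) in control replicates 1, 2 and 3, and at 211, 221 and 199 in the MYCN-induced replicates (log2 fold change 2.68, SE 0.08, adjusted p = 4.15e-05). From 64500589 to 102249336 pairs were counted per library. On the first principal component the controls lay between -40.3 and -25.9, MYCN-induced replicates 1 and 2 at 14.4 and 13.1, and MYCN-induced replicate 3 apart from them at 69.1. In the same library the 10 tested genes of a stress response list (*ATF3*, *ATF4*, *DDIT3* and others) summed to 1128 CPM, whereas MYCN-induced replicates 1 and 2 reached 522 and 414 and the controls 263 to 280. Mesenchymal markers summed to 522 to 546 CPM in controls and 595 to 644 in induced libraries, of which *VIM* alone made up 360 to 372 and 420 to 475. *FN1*, of the same list, fell (adjusted p = 0.033) and was the one mesenchymal marker of 8 past the threshold. The sums were, for adrenergic neuroblastoma markers, 730 to 1075 CPM in controls and 802 to 1007 in induced libraries, and 1.72 to 2.63 in all libraries for the 3 tested of 5 markers of blood, epithelial, liver and endothelial cells, with *CD3E* at 0. In bulk RNA, fewer cells that express a gene and less RNA per cell cannot be told apart.

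The small circular mitochondrial genome is copied into long RNAs by a single-subunit RNA polymerase, POLRMT, which needs TFAM to bend the promoter DNA and TFB2M to melt it. The long RNAs are punctuated by transfer RNAs, and cutting at both ends of these releases the messenger and ribosomal RNAs. Messenger RNAs are then protected by the LRPPRC and SLIRP complex and removed by the PNPT1 and SUPV3L1 degradosome, and several genes of this machinery are known targets of the transcription factors NRF1 and GABP (also called NRF-2).

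Promoter sequence from RefSeq (GRCh38.p14, 250 bases before to 50 after each annotated start) was available for all 10 genes, in 11 windows, since *SLIRP* had 2. Motifs were searched on both strands. The NRF1 letters GCGCANGCG were found in the promoters of *TFAM*, *POLRMT* and *TFB2M*, the 3 genes needed to start transcription, against 7.52% of 35116 promoters of the same length. These stretches are shown because the 3 genes that share them work together at the same promoter. Each is written 5′ to 3′ on the strand of the gene, with the matched letters of either strand in capitals. In *POLRMT*, 3 overlapping matches form 1 run.
TFAM, chr10:58385332-58385372, plus strand: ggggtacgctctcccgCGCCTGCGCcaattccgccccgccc
POLRMT, chr19:633531-633577, minus strand: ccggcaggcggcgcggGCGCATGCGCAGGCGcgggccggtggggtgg
TFB2M, chr1:246566253-246566293, minus strand: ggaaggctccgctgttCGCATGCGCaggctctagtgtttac

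The ETS motif bound by GABP, CCGGAAG, was found in 5 promoters (*POLRMT*, *TEFM*, *SLIRP*, *ELAC2* and *TRMT10C*), against 10.3% of all promoters. One run for each of these genes is given to show that the match lies on either strand, and in *ELAC2* 2 overlapping matches form a palindrome.
POLRMT, chr19:633608-633646, minus strand: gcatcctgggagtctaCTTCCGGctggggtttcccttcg
TEFM, chr17:30906222-30906260, minus strand: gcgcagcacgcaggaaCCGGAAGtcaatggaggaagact
SLIRP, chr14:77708011-77708049, plus strand: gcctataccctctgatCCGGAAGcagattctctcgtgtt
ELAC2, chr17:13018228-13018269, minus strand: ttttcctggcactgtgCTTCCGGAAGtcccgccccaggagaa
TRMT10C, chr3:101561804-101561842, plus strand: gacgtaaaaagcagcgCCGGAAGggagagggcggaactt

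The E-box CACGTG, the letters best known for MYC and MYCN binding, was in none of the 10 genes' windows and in 7.26% of all promoters, and the ATF4 letters TGATGNAA were in none and in 3.62%. *LRPPRC*, *PNPT1* and *SUPV3L1* held none of the 4 motifs. A match is a description of the letters in these windows. *POLRMT* was the only one of the 10 with both the NRF1 and the GABP letters.

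Per exon length, the 10 genes spanned a 13.5-fold range in control cells. *SLIRP* was highest with 34.3 ± 0.194 CPM per kb of exon (SD, n = 3) and *LRPPRC*, its partner, was next with 30.3 ± 1.16. *TRMT10C* (28.2 ± 0.372) and *TFB2M* (27.3 ± 0.963) followed, and their control values overlapped. *PNPT1* stood at 14.6 ± 0.315 CPM per kb. *TFAM* (11.5 ± 0.389) and *SUPV3L1* (10.9 ± 0.38) overlapped, as did *ELAC2* (5.10 ± 0.0877) and *POLRMT* (4.70 ± 1.15). *TEFM*, the elongation factor, was lowest with 2.53 ± 0.1. In MYCN-induced cells the order of the means was the same except that neighbours traded places in 3 pairs, namely *TFB2M* above *TRMT10C*, *SUPV3L1* above *TFAM* and *POLRMT* above *ELAC2*. These are the pairs whose control values overlapped.

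**Figure D1:**
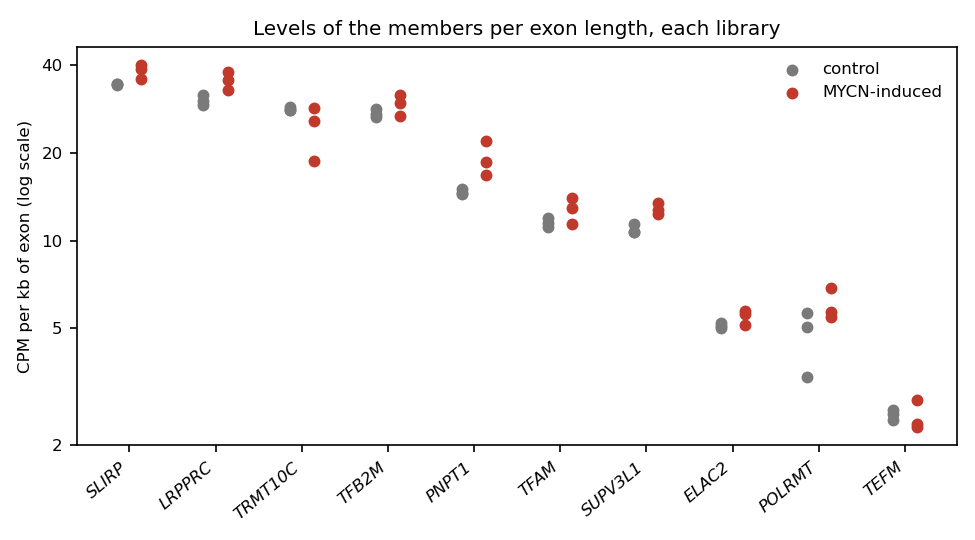
Level of each gene in CPM per kb of exon length (log axis), in order of the control mean, with grey points for the 3 control and red points for the 3 MYCN-induced libraries. The levels run from 34.3 for *SLIRP* to 2.53 for *TEFM* in control cells, and the points of the groups lie close to each other for every gene against this range.

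Among the transcription genes, *TFAM* (chr10:58385345-58399220, plus strand), which packs mitochondrial DNA into nucleoids and bends its promoters, measured 63.0, 60.9 and 58.9 CPM in control replicates 1 to 3 and 68.2, 74.1 and 60.2 in the induced ones. Induced replicate 3 lay within the control range, so the groups overlapped. The log2 fold change was 0.15 (SE 0.09, 95% interval -0.05 to 0.35, adjusted p = 0.42, edgeR quasi-likelihood test).

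*POLRMT* (chr19:617221-633537, minus strand), the polymerase, measured 17.3, 25.6 and 28.5 CPM in controls and 27.7, 28.9 and 34.7 after induction. Control replicate 1 was far below the other controls, and the lowest induced value lay under the highest control value. The log2 fold change of 0.355 was the second largest of the 10, but with the widest interval (SE 0.18, -0.06 to 0.77, adjusted p = 0.347). Without control replicate 1 it was 0.165 (adjusted p = 0.6).

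The exons of *POLRMT* had the highest GC content of the 10 genes, 66.4%, against 36.4% for *TFAM*. In the 2909 tested genes with the highest GC content (60.08% to 85.54%), the median level against the control mean was -0.29 on the log2 scale in control replicate 1, 0.09 and 0.22 in control replicates 2 and 3, and -0.05, 0.07 and 0.17 in the induced libraries. The order of the 3 control libraries was the same for *POLRMT*, at -0.46, 0.10 and 0.26, with 0.22, 0.28 and 0.54 in the induced libraries. With levels corrected for exon GC content the log2 fold change was 0.30 (adjusted p = 0.0586). The part of GC content in the uncorrected value was not tested. The pseudogene *POLRMTP1* held 177 to 253 pairs per library, and 8.78% of the pairs of *POLRMT* when summed over the 6 libraries. As described below, unique alignments were counted, so pairs that fit both genes equally would be counted for neither.

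**Figure D2:**
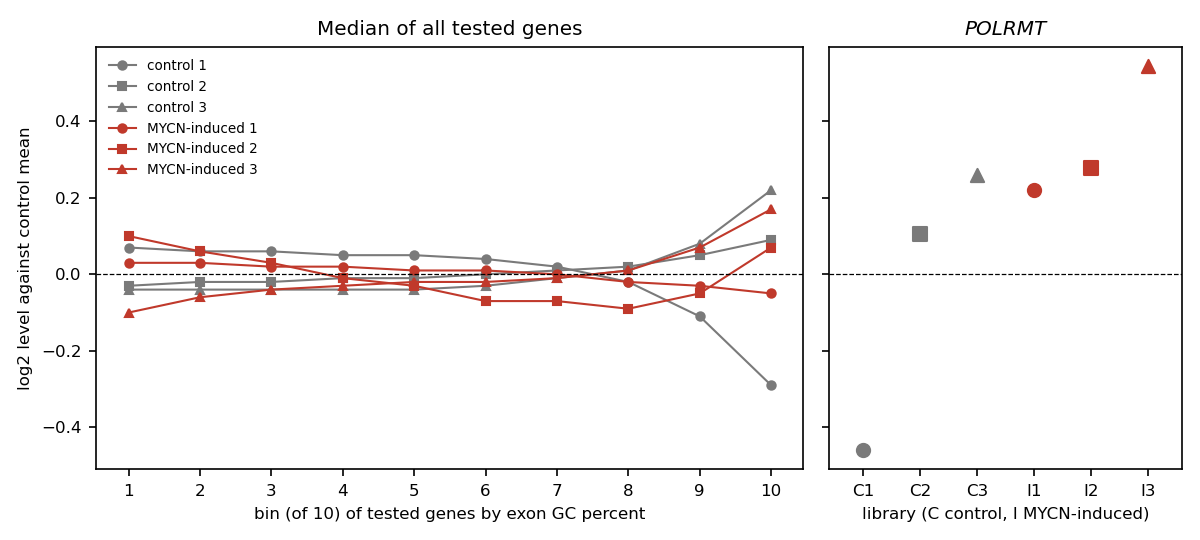
Left, median log2 level against the control mean (y axis) over 10 bins of all tested genes by exon GC percent (x axis), with one line per library. Right, the same measure for *POLRMT* in each library; control replicate 1 is lowest in both, at -0.29 in the last bin and -0.46 for *POLRMT*.

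*TFB2M* (chr1:246540561-246566261, minus strand), the factor that melts the promoter, measured 47.0, 48.5 and 50.4 CPM in controls and 52.9, 55.9 and 47.4 after induction. Induced replicate 3 was again within the control range (log2 fold change 0.098, SE 0.08, -0.09 to 0.28, adjusted p = 0.573). *TEFM* (chr17:30897336-30906238, minus strand), which keeps the polymerase on the template past early stops, measured 6.93, 6.75 and 6.41 CPM against 6.24, 7.51 and 6.09. The induced values of *TEFM* lay on either side of the control values, with a log2 fold change of -0.017 (SE 0.12, -0.29 to 0.25, adjusted p = 0.959) whose sign changed in 4 of 14 alternative analyses. Of its exon bases, 542 (20.5%) are shared with a long non-coding RNA gene on the opposite strand, with which its reads cannot be told apart without strand.

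For RNA cutting, *ELAC2* (chr17:12991612-13018065, minus strand), the RNase Z that cuts at the 3′ end of transfer RNAs in the nucleus and mitochondria, measured 35.2, 35.7 and 36.4 CPM in controls and 39.2, 40.2 and 36.0 after induction. Induced replicates 1 and 2 were above all controls and replicate 3 was not (log2 fold change 0.105, SE 0.07, -0.06 to 0.27, adjusted p = 0.496). *TRMT10C* (chr3:101561868-101566446, plus strand), the methyltransferase subunit of the RNase P that cuts at the 5′ end, measured 53.9, 52.6 and 52.9 CPM in controls. After induction it measured 48.3, 53.5 and 35.1. Induced replicate 2 lay within the control range and replicate 3 far below it.

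*TRMT10C* had the lowest log2 fold change of the 10 genes, -0.22 (SE 0.14, -0.545 to 0.11, adjusted p = 0.47). Without MYCN-induced replicate 3, the library with the highest summed stress response genes, it was -0.053 (adjusted p = 0.636). The part of the stress response genes in this value was not tested.

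For RNA stability, *LRPPRC* (chr2:43886224-43995989, minus strand), which binds and protects mitochondrial messenger RNAs and promotes their polyadenylation, measured 316, 302 and 293 CPM in controls. It measured 357, 379 and 329 in the induced libraries, all above the controls. The log2 fold change was 0.225 (SE 0.07, 0.055 to 0.395, adjusted p = 0.151 by edgeR). *SLIRP* (chr14:77708071-77761104, plus strand), the small RNA-binding partner that stabilizes LRPPRC, measured 90.8, 90.3 and 89.7 CPM in controls and 105, 94.3 and 102 after induction. The controls lay close together and every induced value was above them, with a log2 fold change of 0.15 (SE 0.07, 0.001 to 0.302, adjusted p = 0.264 by edgeR). *SLIRP* shares 14.8% of its exon bases, 118 with *SNW1* on the opposite strand and 271 with *C14orf178* on the same strand, so its values include fractions of shared pairs.

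For RNA decay, *PNPT1* (chr2:55634061-55693863, minus strand), the polynucleotide phosphorylase that degrades mitochondrial RNA from its 3′ end, measured 79.3, 76.6 and 76.3 CPM in controls. It measured 98.6, 116 and 89.0 in the induced libraries, all above the controls. The means were 77.4 ± 1.67 and 101 ± 13.9 CPM (SD, n = 3 each), and the log2 fold change of 0.39 (SE 0.10, 0.16 to 0.62) was the largest of the 10. It ranked 1616 of 29086 genes by p, with an adjusted p = 0.0843 by edgeR. *SUPV3L1* (chr10:69180234-69209099, plus strand), the helicase that unwinds RNA for PNPT1, measured 45.9, 45.7 and 48.6 CPM in controls and 54.2, 52.7 and 57.3 after induction. All 3 induced values were again above the controls (log2 fold change 0.23, SE 0.07, 0.07 to 0.38, adjusted p = 0.122 by edgeR). Both genes of the degradosome and both genes of the LRPPRC and SLIRP complex were thus the 4 whose groups did not overlap. Over all genes tested, 11.5% had all induced values above all control values. So did 17 of 68 other genes of the pathway, described below.

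**Figure D3:**
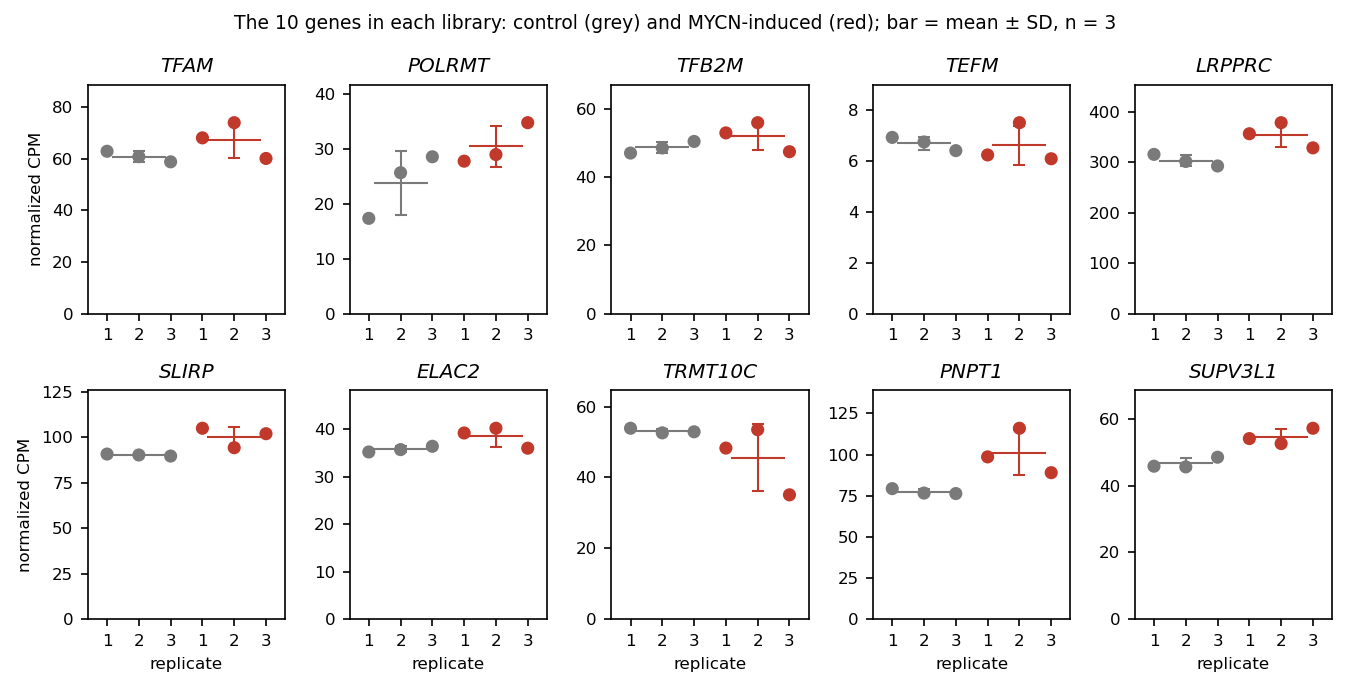
Normalized CPM (y axis, from 0) of the 10 genes in control (grey) and MYCN-induced (red) replicates 1 to 3, with the mean and SD of each group (n = 3). Red points are all above grey points for *LRPPRC*, *SLIRP*, *PNPT1* and *SUPV3L1*, control replicate 1 is low for *POLRMT*, and MYCN-induced replicate 3 is low for *TRMT10C*.

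Counted over the 10 genes, 0 were higher (1.02% of all genes tested were) and 0 were lower (2.38% of all genes) at an adjusted p under 0.05 by edgeR. At an adjusted p under 0.1, 1 was higher, *PNPT1* (2.43% of all genes). At an unadjusted p under 0.05, 4 were higher (8.13%), and 4 had all induced values above all control values (11.5%). These are the same 4 genes. By the same measures 0 of the 10 were lower, against 3080 and 4285 of the 29086 genes tested. A log2 fold change above 0 was seen for 8 of the 10 (49.9% of all genes), with a median of 0.15 against 0 for all genes tested. With DESeq2, the tool of the study, 1 gene was higher, *PNPT1* (adjusted p = 0.0237), where 3% of all genes were. Without the filter on low counts the edgeR test called 1, *PNPT1* (adjusted p = 0.0471), where 1.04% of all genes were called.

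**Figure D4:**
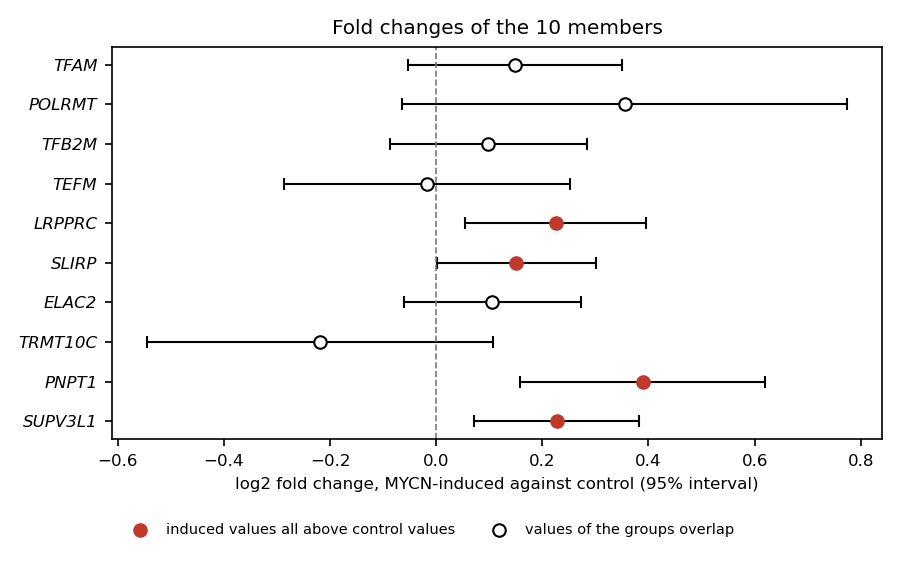
Log2 fold change (x axis) of each gene in MYCN-induced against control cells with its 95% interval from edgeR. Filled red points are the 4 genes with all induced values above all control values, and their intervals lie above 0, from 0.001 for *SLIRP* at the lowest, whereas the other 6 intervals include 0.

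The 3 induced libraries did not carry the shift equally. The median of the 10 genes against their control means was 0.19, 0.19 and 0.06 on the log2 scale in MYCN-induced replicates 1, 2 and 3, and 8, 10 and 6 of the genes were above the control mean. MYCN-induced replicate 3 was the lowest induced library for 7 of the 10 genes and replicate 2 the highest for 7. *SUPV3L1* and *POLRMT* went the other way, with their highest value in replicate 3. Without MYCN-induced replicate 3, 2 of the 10 passed the threshold, where 3.68% of all genes did: *PNPT1* (log2 fold change 0.48, adjusted p = 0.0141) and *LRPPRC* (0.286, adjusted p = 0.023).

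Since several of these proteins work in fixed partnerships, the log2 ratio of partner transcripts within each library was compared in 7 pairs with an exact two-sided permutation test, which with 3 against 3 libraries cannot go below p = 0.1. *LRPPRC* to *SLIRP* was 1.80, 1.74 and 1.71 in controls and 1.77, 2.01 and 1.70 after induction (difference 0.074, exact p = 0.7). *PNPT1* to *SUPV3L1* was 0.79, 0.74 and 0.65 against 0.86, 1.14 and 0.63 (difference 0.15, exact p = 0.5). Both ratios overlapped between groups, and without MYCN-induced replicate 2 the differences were -0.019 and 0.022.

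*TRMT10C* codes for the methyltransferase subunit of the RNase P that cuts at the 5′ end, and *ELAC2* for the 3′ cutting enzyme. The ratio of *TRMT10C* to *ELAC2* was 0.62, 0.56 and 0.54 in controls and 0.30, 0.41 and -0.03 in induced cells. This was the one ratio of the 7 without overlap, with a difference of -0.345 (exact p = 0.1, the smallest possible, and 0.7 after adjustment over the 7 ratios). *TRMT10C* to *HSD17B10*, another subunit of the same RNase P, differed by -0.351 and overlapped (0.67, 0.61 and 0.68 against 0.45, 0.65 and -0.19). Without MYCN-induced replicate 3 these differences were -0.214 and -0.103. The differences of *POLRMT* to *TFB2M*, *TFAM* to *TFB2M* and *POLRMT* to *TEFM* were 0.28, 0.048 and 0.40, each with overlap and an adjusted exact p = 0.7. Without control replicate 1 the first and the last were 0.094 and 0.164.

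The product of this machinery, RNA of the 37 mitochondrial genes, took 14.1%, 13.4% and 13.6% of counted pairs in controls and 13.1%, 11.9% and 14.2% in MYCN-induced cells. The groups overlapped (difference -0.692 percentage points, exact permutation p = 0.5). It was -0.104 without MYCN-induced replicate 2 and -1.27 without replicate 3. Messenger RNAs made up most of it, with 13.8%, 13.2% and 13.4% against 12.8%, 11.6% and 13.9%. The libraries were depleted of ribosomal RNA, and the 2 mitochondrial ribosomal RNA genes held 0.006% of pairs in controls and 0.00741% after induction (means). The share of the 37 genes therefore says little about mitochondrial ribosomal RNA. MYCN-induced replicate 2, which was the highest induced library for 7 of the 10 nuclear genes, had the lowest share. This is a single library, and a relation between the nuclear genes and the share was not tested.

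The companion genes of the pathway, 68 in 5 lists, were read in the same test, and all 68 were tested. One was higher (1.02% of all genes were) and one was lower (2.38%) at an adjusted p under 0.05, both among the nuclear regulators. *PPARGC1B*, a coactivator of genes for mitochondrial biogenesis, rose from 22.8, 23.5 and 22.8 CPM to 39.2, 43.9 and 31.8 (log2 fold change 0.73, SE 0.12, adjusted p = 0.0206). *PPARGC1A*, its relative, fell from 1.40, 1.27 and 1.22 CPM to 0.57, 0.708 and 0.861 (-0.86, SE 0.18, adjusted p = 0.0486). *PPARGC1B* lost its call without any one of the 3 control libraries or without MYCN-induced replicate 1 (adjusted p = 0.0837 to 0.119). Over all genes, 0.063% to 0.252% were called higher in these settings, against 1.02% with all libraries. *PPARGC1A* lost its call without any single library other than MYCN-induced replicate 3 (adjusted p = 0.116 to 0.199). In those settings 72 to 297 of all genes were called lower, against 692 with all libraries. The median over all 68 was 0.062, 47 were above 0 (49.9% of all genes), and 12 were higher at an unadjusted p under 0.05 (8.13% of all genes). At that level 2 were lower (3080 of the 29086 genes tested). All induced values lay above all control values for 17 of the 68 (11.5% of all genes). These were 5 of 16 in the transcription and nucleoid list, 2 of 13 for cutting and maturation and 3 of 8 for stability and decay. In the RNA modification list there were 5 of 20, and among the nuclear regulators 2 of 11. All induced values lay below all control values for 4 of the 68 (4285 of the 29086 genes tested).

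In the transcription and nucleoid list none of 16 passed the threshold, and the median was 0.068. Its smallest p-values were those of *TOP1MT*, the mitochondrial topoisomerase (31.3, 42.6 and 47.1 against 53.5, 67.8 and 62.6 CPM, adjusted p = 0.0848), *SSBP1*, which coats single-stranded mitochondrial DNA (log2 fold change 0.27, adjusted p = 0.116), and *MTERF3*, a repressor of mitochondrial transcription (0.31, adjusted p = 0.128). Control replicate 1 was the lowest library for *TOP1MT*, as it was for *POLRMT*.

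In the RNA cutting and maturation list none of 13 passed (median 0.038). *PTCD1* (0.22, adjusted p = 0.145), *ANGEL2* (0.09, adjusted p = 0.518) and *HSD17B10* (0.11, adjusted p = 0.528) had its smallest p-values. In the stability and decay list none of 8 passed (median 0.086), but 2 nucleases came close. *REXO2*, which degrades the short RNAs left by PNPT1, measured 13.4, 13.4 and 14.7 CPM against 17.7, 19.0 and 22.6 (0.51, adjusted p = 0.0515). *LACTB2*, an endonuclease of mitochondrial RNA, measured 4.74, 4.74 and 4.93 against 6.35, 7.11 and 6.38 (0.46, adjusted p = 0.0545). *PTCD3*, a protein of the mitochondrial ribosome, followed (0.095, adjusted p = 0.466). For these 3 of the 8 all induced values were above all control values (11.5% of all genes). The rest of the list overlapped between groups.

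In the RNA modification list none of 20 passed (median 0.085). *PUS1*, a pseudouridine synthase, measured 27.0, 36.0 and 38.8 CPM in controls and 47.6, 53.1 and 49.1 after induction (0.56, adjusted p = 0.0685). Its log2 fold change was 0.412 without control replicate 1. *NSUN3*, which methylates the mitochondrial methionine transfer RNA, was lower in all 3 induced libraries than in any control (-0.30, adjusted p = 0.105). So were 4285 of the 29086 genes tested. *TRUB2*, another pseudouridine synthase, stood at 0.23 on the log2 scale (adjusted p = 0.144). Of the 11 nuclear regulators, *GABPB1*, a subunit of GABP, had the third smallest p-value (0.20, adjusted p = 0.223).

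**Figure D5:**
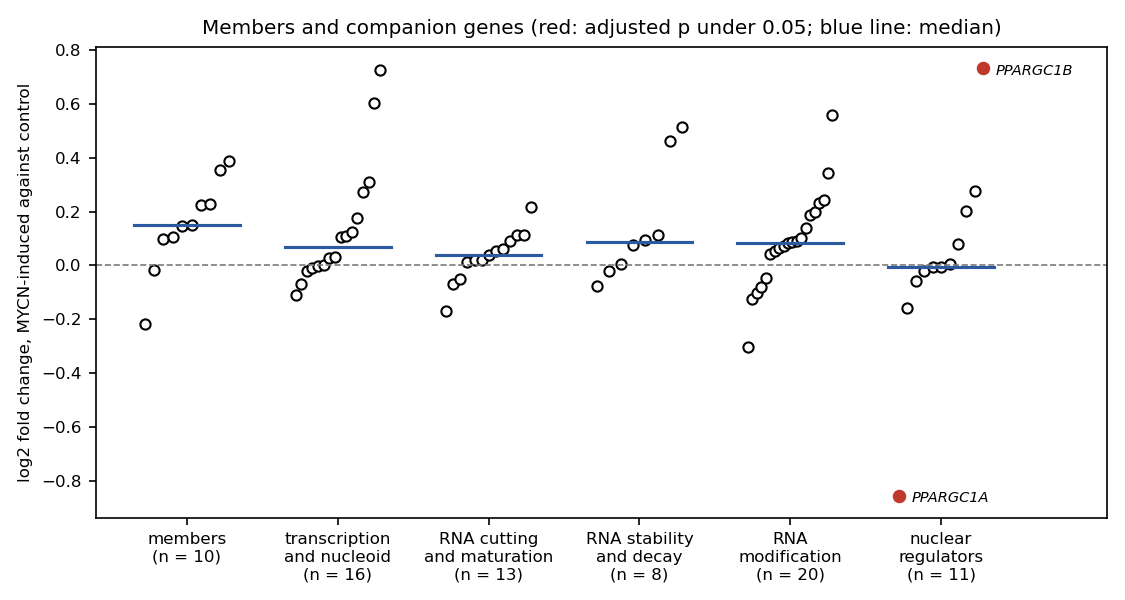
Log2 fold change (y axis) of the 10 genes (members) and of 68 companion genes in 5 lists, one point per gene, in order of size within a list, with the list's median as a blue line. The medians are 0.15 for the 10 genes and -0.005 to 0.086 for the companion lists, and the filled red points are *PPARGC1B* (0.73) and *PPARGC1A* (-0.86).

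Of the 77 other genes in these lists and among the 10, the profile over the 6 libraries most like that of *PNPT1* was that of *SSBP1*, with a root mean square difference of 0.067 on the log2 scale after centring. This difference takes in the shift between groups, by which *PNPT1* and *POLRMT* were picked. *SSBP1* measured 95.7, 92.1 and 94.7 CPM in controls and 112, 125 and 104 after induction, highest in induced replicate 2 as was *PNPT1*. The next was *LACTB2* (0.085). For *POLRMT* the nearest were *ESRRA*, an orphan nuclear receptor of energy metabolism (0.12), and *PUS1* (0.16), which both had their lowest value in control replicate 1. Exon GC content was 66.4% for *POLRMT*, 64.2% for *ESRRA* and 57.3% for *PUS1*. The part of GC content in this likeness was not tested.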

How the data were processed

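Total RNA, depleted of ribosomal RNA, of 3 control and 3 MYCN-induced SK-N-AS TR-MYCN libraries (120 h) was used, and the replicates are taken as the biologically independent experiments that the study describes. The authors deposited estimated counts, that is read pairs per gene, without normalization. Per the file headers, unique STAR alignments were counted over exons with featureCounts 1.6.4, with fractions for overlaps and no strand option. The submitters' processing notes name STAR 2.7.1a, featureCounts 1.5.1 and GRCh38, and the methods give GENCODE 30 and further options, among them a strand option. Of 60651 gene identifiers, 99.65% matched GENCODE 44, used for names. The 92 spike-in sequences had 0 counts.

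After rounding to whole numbers, the 29086 genes that reached 10 counts in 3 or more libraries entered edgeR 4.0.16 under R 4.3.3 (TMM normalization, quasi-likelihood test without a replicate block, Benjamini-Hochberg adjustment over all genes, threshold 0.05). The SE is the size of the log2 fold change divided by the square root of F. CPM are TMM-normalized. Depth was 64500589 to 102249336 pairs per library, at least 405 counts for each of the 10 genes, so that the spread between libraries (common coefficient of variation 0.153) sets most of the error. No replicates agreed within sampling noise (chi-square per gene 12.1 to 145.6). The test was checked on simulated counts with changes larger than those of the 10 genes, so the check does not cover changes as small as theirs.

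The 10 genes and all lists were chosen with earlier results of these data known. The genes named are the 10, *MYCN*, companion genes past the threshold, the 3 with the smallest p in each companion list and the 2 nearest in profile to the 2 largest changes. Alternatives were library size only, upper-quartile normalization, DESeq2 1.42.0 (the tool of the study), omitting the count filter, requiring 100 counts in all libraries, a replicate block, leaving out each library or the mitochondrial genes, an adjusted p under 0.1, a pseudocount of 0.5 or no rounding for ratios and, added after seeing the data, a correction for exon GC content (lowess, span 0.3).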

Additional observations from a re-analysis of the deposited data

How the results depend on the processing

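The count of the 10 genes called higher was 0 and became 1 (*PNPT1* each time) without a count filter, with GC correction, with DESeq2 and at an adjusted p under 0.1. It ran from 0 to 2 when single libraries were left out, with 2 only without MYCN-induced replicate 3. The count called lower was 0 in every alternative. Over 14 alternatives the log2 fold change of *PNPT1* ran from 0.28 to 0.48 (adjusted p = 0.0141 to 0.319 by edgeR or DESeq2) and that of *LRPPRC* from 0.175 to 0.286 (adjusted p = 0.023 to 0.447). Among the companion genes, 1 was called higher, and 2 were with library size only, 3 with upper-quartile normalization, 4 without a count filter, 5 at an adjusted p under 0.1, 7 with GC correction, 7 with DESeq2 and 0 to 6 when single libraries were left out (0 without any one control or MYCN-induced replicate 1, 6 without MYCN-induced replicate 3). Calls over all genes moved as well, from 1.02% higher to 0.822% with library size only, 0.918% with upper-quartile normalization, 1.04% without a count filter, 2.43% at an adjusted p under 0.1, 2.05% with GC correction, 3% with DESeq2 and 3.68% without MYCN-induced replicate 3. Without control replicates 1, 2 and 3 the share called higher was 0.162%, 0.063% and 0.105%. Leaving out MYCN-induced replicates 1 and 2 gave 0.252% and 0.589%. The count of companion genes called lower was 1, and was 0 with at least 100 counts in every library, where *PPARGC1A* is not tested, 2 with GC correction and 0 to 2 when single libraries were left out. Of all genes, 692 were called lower, 900 with GC correction and 72 to 1279 when single libraries were left out. The replicate block gave 5 companion genes higher and 0 lower (*PPARGC1A*, adjusted p = 0.0777), 0 of the 10 genes, and over all genes 265 higher and 575 lower against 298 and 692 without it. Deviations of same-numbered libraries correlated at 0.22, -0.02 and 0.07. Control replicate 1 correlated best with its own number, and control replicates 2 and 3 with another number. Deviations from a mean of 3 libraries are tied to each other, so these values cannot decide whether same-numbered libraries belong together. The sources do not say whether they do. The partner ratios and the mitochondrial share hardly moved with unrounded counts, a pseudocount or the ribosomal RNA genes left out, but rested on single libraries. When these were left out the difference ran from -1.27 to -0.104 percentage points for the share, and on the log2 scale from -0.019 to 0.137 for *LRPPRC* to *SLIRP*, 0.022 to 0.276 for *PNPT1* to *SUPV3L1*, -0.525 to -0.103 for *TRMT10C* to *HSD17B10*, -0.439 to -0.214 for *TRMT10C* to *ELAC2*, 0.094 to 0.403 for *POLRMT* to *TFB2M*, -0.003 to 0.097 for *TFAM* to *TFB2M* and 0.164 to 0.58 for *POLRMT* to *TEFM*. The causes were not tested. With 3 libraries per group, the intervals of the 10 genes were 0.3 to 0.84 wide on the log2 scale.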
